A study of Mus musculus with 6 samples.

Results

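The complement system was examined in microglia, the resident macrophages of the brain, through 9 genes chosen by name. They encode the 3 chains of C1q (C1qa, C1qb and C1qc), the components C3 and C4b, the receptors C3ar1 and C5ar1, and the chains Itgam and Itgb2 of complement receptor 3 (CR3). All 9 were found by symbol among the 17459 rows of the count table, and all 9 passed the filter on low counts. RNA sequencing compared 3 libraries of Mir137 knockout microglia (cKO) with 3 of control microglia (cWT), from male C57BL/6J mice aged 8 weeks. The cKO mice were Mir137loxP/loxP;Tmem119-CreERT2, with floxed alleles of the microRNA gene and a recombinase that acts in cells using the Tmem119 promoter and needs tamoxifen. The cWT mice were Mir137+/+;Tmem119-CreERT2, so both genotypes carried the recombinase. Tamoxifen was injected on 7 consecutive days from 7 to 8 weeks of age, in the description of how the mice were made. The labels mention 4 mice for the isolation of microglia and do not say how they map to replicates, so each p-value rests on the spread among these libraries alone, part of which may be technical.

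Complement is a cascade of plasma proteins that tags particles for removal by phagocytes. C1q binds its targets and starts the classical pathway, C4 is cut next, and C3 is the point where the pathways meet. Fragments of C3 on a surface are bound by CR3, while the small fragments C3a and C5a signal through C3AR1 and C5AR1. In the brain microglia are a main source of C1q, and C1q, C3 and CR3 are known for their part in the removal of synapses during development and disease.

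Total counts lay between 16503825 and 17482042 in cWT and between 12068703 and 15212800 in cKO. Mir137 itself was not analysed here, and the libraries offer no check of the deletion. All 10 microglial markers had counts in each library, and their summed level was 34689 to 36894 CPM in cWT and 35262 to 40470 CPM in cKO (CPM, counts scaled to library size with TMM, the trimmed mean of M values). Tmem119, which drives the recombinase, went from 425 ± 30.1 to 1084 ± 225 CPM (SD, n = 3 each). Markers of other cells were present as well. The 7 neutrophil markers with a row summed to 4334 to 4902 CPM in cWT and 11468 to 15983 CPM in cKO, and the 7 monocyte markers to 526 to 613 and 1048 to 1355 CPM. Of the 7 neutrophil markers 5 were called higher and 1 lower, where 35.6% and 36.5% of all tested genes were called. Once length and GC content were offset in each library, as set out further on, 2 were called higher and 3 lower, against 29.1% and 27.6% of all genes, with a median log2 fold change of -0.06. Of the 7 monocyte markers 5 were called higher and 1 lower, and with the offsets 1 higher and 3 lower (median 0.10). Chil3 made up most of the monocyte sum, while Ccr2 fell by 1.45 on the log2 scale (edgeR adjusted p = 0.0001011). The 5 choroid plexus markers summed to 2167 to 2445 CPM in cWT and 10432 to 14114 CPM in cKO. Ttr made up most of that sum, with means of 2216 CPM in cWT and 12112 CPM in cKO, and Kl rose least, by 0.38 (log2). Of these markers 5 were called higher and 0 lower, and with the offsets 4 higher and 0 lower, beside the same shares of all genes.

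The microRNA removed is shown with its seed, bases 2 to 8, in capitals, because the matches searched in the complement genes derive from it. It lies at chr3:118433901-118433923 on the plus strand of GRCm38 (RefSeq, GRCm38.p6).
miR-137-3p: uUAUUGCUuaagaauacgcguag
The reverse complement of that seed, AGCAATA, was found in the annotated 3′ UTR of 1 of the 9 genes, C3ar1. Of 15734 genes of the count table with a 3′ UTR, 10.3% hold such a match. The C3ar1 match, in capitals below, begins at base 1108 of a 3′ UTR of 2685 bases and lies at chr6:122848709-122848715 on the minus strand (GRCm38, GENCODE M21).
C3ar1 site: catgcttcaacAGCAATAtcaaaagattt
A match of letters is a description and shows no binding.

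The 3 C1q genes lie side by side on the minus strand of chromosome 4, within 18675 bases. C1qb occupies chr4:136880129-136886187, C1qc chr4:136889804-136893065 and C1qa chr4:136895917-136898803, with gaps of 3616 and 2851 bases between them. The promoter windows of C1qb and C1qc, which rose, and of Itgam, which fell, are printed from 250 bases before to 50 bases after the RefSeq start site (GRCm38.p6). The windows were searched on both strands for GAGGAA, the core bound by the myeloid factor PU.1, for TGANTCA, the site of AP-1 factors, and for AGCAATA. Capitals mark the matches found, all of them GAGGAA or its reverse complement.
C1qb, chr4:136886151-136886450, minus strand: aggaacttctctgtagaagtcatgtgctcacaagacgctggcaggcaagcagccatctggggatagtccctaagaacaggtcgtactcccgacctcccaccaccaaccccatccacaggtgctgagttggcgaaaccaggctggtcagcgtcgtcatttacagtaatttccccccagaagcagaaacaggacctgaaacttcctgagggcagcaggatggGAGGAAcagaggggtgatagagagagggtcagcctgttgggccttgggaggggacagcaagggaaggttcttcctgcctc
C1qc, chr4:136892865-136893164, minus strand: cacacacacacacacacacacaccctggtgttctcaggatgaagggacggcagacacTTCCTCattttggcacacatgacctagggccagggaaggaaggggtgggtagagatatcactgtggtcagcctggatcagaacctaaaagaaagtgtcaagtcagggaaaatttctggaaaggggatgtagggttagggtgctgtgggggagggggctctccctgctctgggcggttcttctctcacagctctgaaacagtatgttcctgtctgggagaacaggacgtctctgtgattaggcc
Itgam, chr7:128062390-128062689, plus strand: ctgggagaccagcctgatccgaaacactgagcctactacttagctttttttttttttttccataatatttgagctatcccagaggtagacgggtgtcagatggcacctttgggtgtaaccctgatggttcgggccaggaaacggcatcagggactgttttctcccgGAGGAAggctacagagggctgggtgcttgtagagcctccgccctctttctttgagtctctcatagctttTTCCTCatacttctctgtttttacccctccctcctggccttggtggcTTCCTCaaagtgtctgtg
C1qb and C1qc held 1 GAGGAA match each and Itgam held 3, while the windows of C3, C3ar1 and C5ar1, not printed, held 0. Of 32851 RefSeq promoter windows 28.3% hold at least 1. The AP-1 site was absent from the windows of C1qb, C1qc, Itgam, C3 and C5ar1 and was found once in that of C3ar1, against 7.81% of all windows. AGCAATA was found in none of the 6 windows at hand (C1qb, C1qc, C3, C3ar1, C5ar1 and Itgam), against 2.16% of all windows. C1qa, C4b and Itgb2 were not searched.

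The comparison of cKO with cWT asks how the loss of miR-137 changes these transcripts. Of the 9 genes 3 rose (C1qa, C1qb and C1qc), 3 fell (C3, C5ar1 and Itgam), and C4b, C3ar1 and Itgb2 did not pass the test. These are calls at an adjusted p under 0.05 in edgeR's quasi-likelihood test over 13490 genes. The same test called 72.1% of all genes, 35.6% higher and 36.5% lower, so 6 of 9 called is a share near the background. The genotypes did not overlap for the 6 called genes, as for 74.6% of all genes tested. Over the 9 genes the median log2 fold change was 0.03, against -0.02 over all genes tested. The authors' deposited table, where 57.9% of 16374 genes with an adjusted p were called, called the same 3 genes higher and the same 3 lower. In bulk libraries fewer cells of a type and less RNA per cell cannot be told apart.

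**Figure D1:**
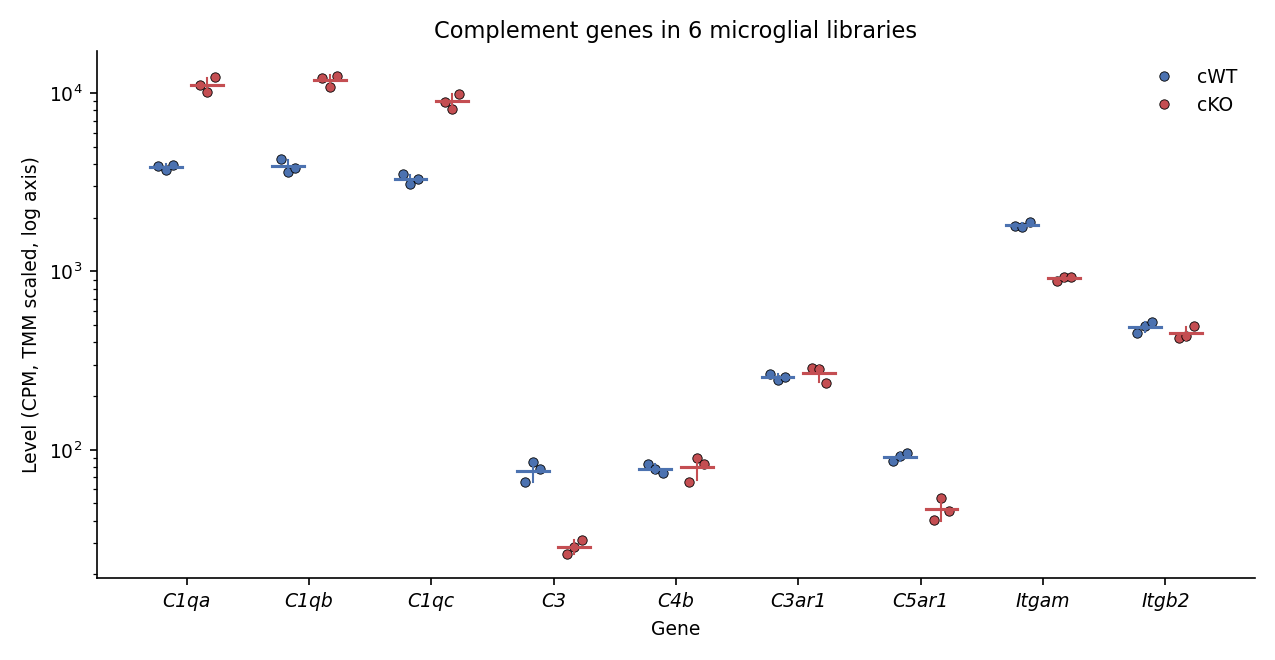
Level of each complement gene in the 6 libraries, in CPM after TMM scaling on a log axis. Points are libraries, horizontal bars are means and vertical bars are SD (n = 3 per genotype), and the genotypes are apart for the 3 C1q genes, C3, C5ar1 and Itgam and overlap for C4b, C3ar1 and Itgb2.

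The C1q chains had the highest levels of the 9 genes in each library. C1qa, which encodes the A chain, measured 3902, 3722 and 3963 CPM in the cWT libraries and 11010, 10185 and 12225 CPM in the cKO libraries. Its lowest cKO value was well above its highest cWT value. C1qa rose 2.88-fold, which is 1.53 on the log2 scale, with SE 0.12 (edgeR adjusted p = 1.83e-09). C1qb, the B chain, measured 4265, 3606 and 3795 CPM in cWT and 12059, 10732 and 12459 CPM in cKO, a 3.02-fold rise (log2 fold change 1.60, SE 0.12, adjusted p = 1.508e-09). C1qc, the C chain, measured 3494, 3099 and 3276 CPM in cWT and 8954, 8127 and 9907 CPM in cKO, and rose 2.73-fold (log2 fold change 1.45, SE 0.12, adjusted p = 4.097e-09). For all 3 chains cKO replicate 2 was the lowest and cKO replicate 3 the highest of its genotype. Ranked by CPM among all genes of a library, C1qa went from places 9 to 10 in cWT to places 6 to 8 in cKO. Together the 3 genes took 1.26% ± 0.0574 of all counts in cWT and 2.78% ± 0.197 in cKO (n = 3 each).

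The proportions of the chains, which join in equal numbers in the C1q protein, moved little. Counts were divided by annotated transcript length (1040, 1088 and 1203 bases for C1qa, C1qb and C1qc) to compare the genes with each other. On that scale C1qa made up 35.5%, 37.8% and 38.0% of the 3 chains in cWT and 36.4%, 37.1% and 37.4% in cKO. The share of C1qb was 35.6% ± 1.25 in cWT and 37.3% ± 0.827 in cKO, and its values overlap between the genotypes. C1qc was the lowest chain in each library, with shares of 27.2% to 27.5% in cWT and 25.6% to 26.2% in cKO, which do not overlap. In exact two-sided permutation tests over the samples, adjusted over the 4 ratios tested, p was 0.9 for C1qa, 0.267 for C1qb and 0.2 for C1qc (n = 3 each). With 3 against 3 the smallest unadjusted p is 0.1, which C1qc reached.

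**Figure D2:**
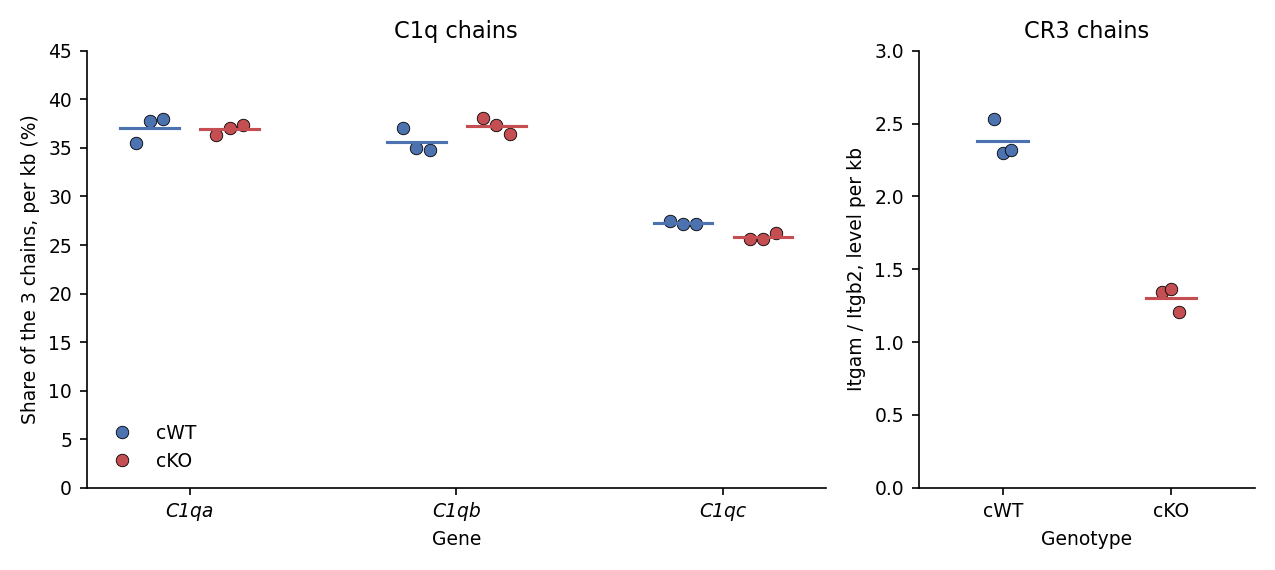
Left, share of each C1q chain in the summed level per kilobase of the 3 chains, in percent. Right, ratio of Itgam to Itgb2 in level per kilobase. Points are libraries and bars are means (n = 3 per genotype), with C1q shares between 25.6% and 38.1% in both genotypes and the CR3 ratio lower in each cKO library (1.21 to 1.37) than in any cWT library (2.30 to 2.53).

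Of the 2 components cut during activation, C3 fell and C4b did not pass the test. C3, whose cleavage yields C3a and the C3b that coats targets, lies at chr17:57203970-57228136. It measured 65.6, 84.9 and 78.0 CPM in cWT and 26.1, 28.7 and 31.2 CPM in cKO. All cKO values were below all cWT values, and the log2 fold change was -1.41 (SE 0.12, adjusted p = 4.6e-09). C4b, which encodes complement C4 and lies at chr17:34728380-34743882, measured 83.0, 77.9 and 74.0 CPM in cWT. In cKO it measured 66.3, 90.4 and 83.5 CPM, a range that encloses the cWT values. Its log2 fold change was 0.03, with a 95% interval from -0.20 to 0.27 (adjusted p = 0.7971). Its close paralog C4a had counts of 8 to 10 in cWT and 1 to 3 in cKO, and reads of the pair may be split between them, so C4b is uncertain to that extent. Per kilobase the mean C1q chain exceeded C3 by 191 to 276 times in the cWT libraries and by 1576 to 1910 times in the cKO libraries. This ratio sets short genes against a long one, and with the offsets for length the C1q chains stood at 0.45 to 0.49 and C3 at -0.47 (log2). Markers of astrocytes, which also express C3 and C4b, had counts in all libraries (7 of 7). They summed to 376 to 390 CPM in cWT and 366 to 613 CPM in cKO. Slc1a3 made up most of that sum, while Gfap went from 7.02 to 35.1 CPM and Gjb6 from 3.79 to 10.8 CPM (adjusted p = 0.003127 and 0.0002222). Gfap and Gjb6 were the 2 astrocyte markers called higher, with 0 lower, against 35.6% and 36.5% of all genes. The other 5 did not pass the test. With the offsets 5 of the 7 were called higher and 0 lower (median 0.93), against 29.1% and 27.6% of all genes. C4b was called higher at 1.12 under the offsets. The part of astrocytes in these values was not tested.

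The receptors of the small fragments differed from each other. C3ar1, the receptor of C3a at chr6:122847138-122856161, measured 265, 247 and 256 CPM in cWT and 287, 283 and 236 CPM in cKO. The cKO values lay on both sides of the cWT range, and the log2 fold change was 0.07, with a 95% interval from -0.14 to 0.27 (adjusted p = 0.5417). C5ar1, the receptor of C5a at chr7:16246743-16259540, measured 86.1, 92.0 and 95.9 CPM in cWT and 40.3, 53.6 and 45.2 CPM in cKO. Its genotypes did not overlap, and it fell to 0.508 of its cWT level (log2 fold change -0.98, SE 0.11, adjusted p = 2.565e-07). C5ar2, the other receptor of C5a, fell as well, from 71.6 ± 7.17 to 28.8 ± 6.97 CPM (log2 fold change -1.31, adjusted p = 1.167e-07). The ratio of C3ar1 to C5ar1 per kilobase was 1.57 to 1.82 in cWT and 3.08 to 4.20 in cKO. Neutrophils carry C5ar1 too, and the summed neutrophil markers given above were higher in each cKO library. Within that list S100a9 rose by 2.01 and Ltf fell by 0.71, and the part of these cells in C5ar1 was not tested.

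The CR3 chains parted. Itgam, the alpha chain CD11b that marks myeloid cells, lies at chr7:128062640-128118491, in a region tagged as overlapping another gene model. It measured 1793, 1782 and 1881 CPM in cWT and 884, 929 and 935 CPM in cKO. The values were close within each genotype, and Itgam fell to 0.504 of its cWT level (log2 fold change -0.99, SE 0.10, adjusted p = 6.548e-08). Itgb2, the beta chain CD18 at chr10:77530252-77565708, measured 453, 496 and 519 CPM in cWT and 421, 435 and 494 CPM in cKO. These ranges overlap, and the log2 fold change was -0.12, with a 95% interval from -0.33 to 0.09 (adjusted p = 0.2948). The ratio of Itgam to Itgb2 per kilobase was 2.53, 2.30 and 2.32 in cWT and 1.34, 1.37 and 1.21 in cKO. That ratio did not overlap between genotypes, with p = 0.1 in the exact permutation test, the smallest possible, and 0.2 after adjustment over the 4 ratios. The chains differ in length (4649 and 2970 bases), and with the offsets Itgam stood at -0.32 and Itgb2 at 0.0047 (log2).

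ITGB2 also pairs with other alpha chains of leukocytes. Itgal, the partner in LFA-1, fell from 53.6 ± 4.27 to 18.2 ± 3.71 CPM (log2 fold change -1.56, adjusted p = 9.196e-09). Itgax, the alpha chain of complement receptor 4, fell from 32.7 ± 1.40 to 14.8 ± 0.741 CPM (log2 fold change -1.15, adjusted p = 9.208e-08). With the offsets Itgal (5195 bases) stood at -0.61 and Itgax (4046 bases) at -0.64 (log2). Itgam made up 95.5% ± 0.244 of the 4 alpha chains Itgam, Itgax, Itgal and Itgad per kilobase in cWT and 96.4% ± 0.343 in cKO (n = 3 each). The 4 alpha chains together exceeded Itgb2 by 2.41 to 2.65 times in cWT and by 1.25 to 1.42 times in cKO. Neutrophils and monocytes also express these integrins, and their summed markers were higher in each cKO library. With the offsets 2 of 7 neutrophil markers and 1 of 7 monocyte markers were called higher. In each of these lists 3 were called lower, against 29.1% higher and 27.6% lower over all genes. Markers of natural killer and T cells, which use Itgal, had counts in all libraries for 5 of 6 genes and summed to 28.8 to 35.4 CPM in cWT and 50.5 to 55.7 CPM in cKO. Within that sum Gzma went from 19.2 to 39.8 CPM, while Nkg7, Klrb1c, Cd3d and Ncr1 did not pass the test (adjusted p from 0.4981 to 0.824). With the offsets 0 of the 5 tested markers were called higher and 3 lower, against 29.1% and 27.6% of all genes. The part of these cells was not tested.

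Levels per kilobase were scaled to the same sum in each library. In order of that level in cWT, the C1qa and C1qb chains led and overlapped each other, at 9988 to 10473 and 9294 to 10436. C1qc followed at 7225 to 7732, then Itgam at 1027 to 1112, Itgb2 at 406 to 480, C3ar1 at 161 to 164 and C5ar1 at 90.3 to 104. C3 (34.0 to 46.3) and C4b (37.8 to 41.1) came last and overlapped each other. In cKO C1qa and C1qb overlapped again, and Itgam (245 to 283) was next to Itgb2 (182 to 230). C5ar1 (20.4 to 29.9) and C4b (15.9 to 23.8) overlapped, and C3 was last at 6.54 to 8.39. This scale is set within each library by the sum over all genes with a known length. The order above compares genes within a library and not the level of a gene between genotypes. Shares and ratios on this scale were compared between genotypes in earlier paragraphs. Dividing by length does not remove the trend of fold change with length set out next, so ratios of genes unlike in length carry it.

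Fold changes followed transcript length across the whole table, and the complement genes differ in length. The Spearman correlation of log2 fold change with annotated length was -0.72 across 12983 genes, which are not independent replicates. The C1q genes belong to the shortest of 10 equal length groups, with a median of 1.57 (log2), and 86.2% of its genes rose. They stand near the long end of that group, and the next group had a median of 0.98. Itgam (4649 bases) and C3ar1 (4305 bases) share a group with a median of -0.69, where 66.3% of genes fell, and C3 (5136 bases) and C4b (5379 bases) share a group with a median of -0.99. Itgam and C3 thus stood below the median of their group, and C3ar1 and C4b stood above it at 0.07 and 0.03. C5ar1, with 2540 bases, stood at -0.98 in a group with a median of 0.28, where 14.6% of genes fell. Itgb2, with 2970 bases, was in a group with a median of 0.05.

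**Figure D3:**
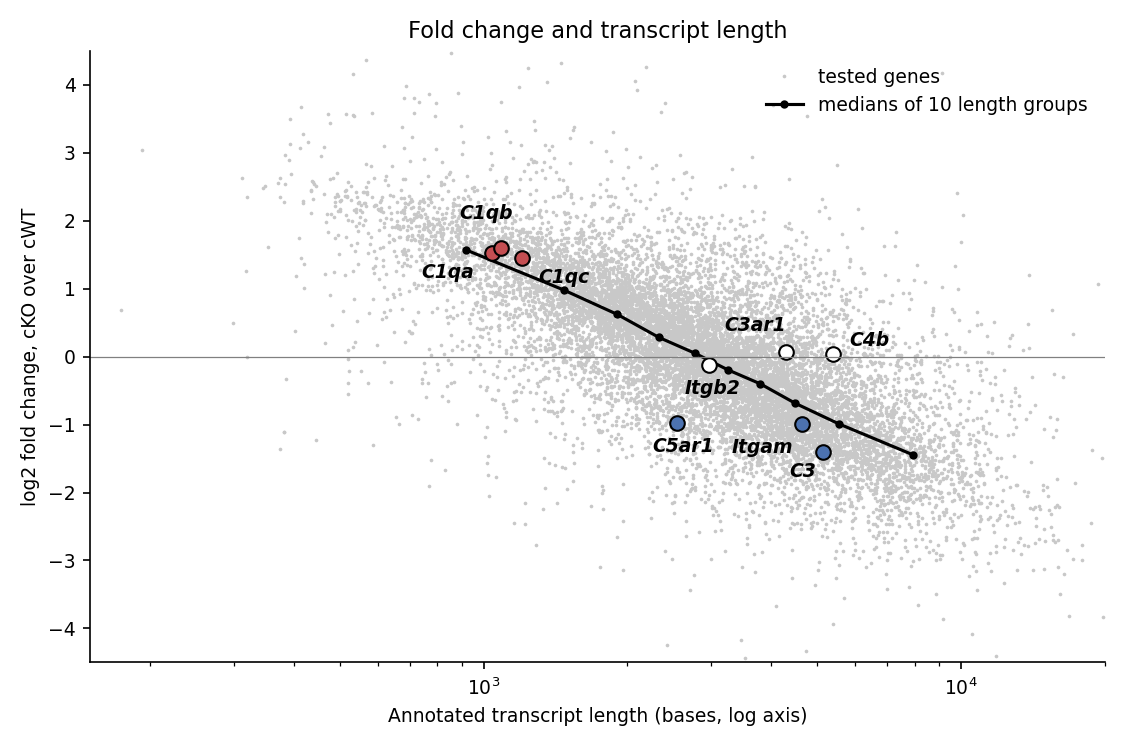
Log2 fold change of cKO over cWT against annotated transcript length on a log axis, with each tested gene in grey and the medians of 10 equal length groups in black. Red complement genes rose, blue ones fell and white ones did not pass the test, and the C1q genes lie near the black line while C5ar1 lies below it and C4b and C3ar1 above it.

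When length and GC content were offset in each library, 5 of the 9 genes were called higher and 3 lower, against 29.1% and 27.6% of 12983 genes (56.7% in either direction). The C1q genes kept their call with smaller values, at 0.45 for C1qa, 0.49 for C1qb and 0.46 for C1qc (adjusted p = 8.209e-05, 4.886e-05 and 6.758e-05). C4b was called higher at 1.12 (95% interval 0.93 to 1.30, adjusted p = 8.715e-11) and C3ar1 at 0.45 (0.31 to 0.60, adjusted p = 7.516e-06). C3 stood at -0.47 (adjusted p = 0.0001239), Itgam at -0.32 (adjusted p = 0.0008912) and C5ar1 at -1.17 (adjusted p = 5.787e-11). Itgb2 stood at 0.0047, with an interval from -0.15 to 0.16. The scaling decided the direction of C4b and C3ar1. With libraries scaled by total count alone, which moved the median of all genes to -0.42 and the share of calls that were higher from 49.4% to 33.1%, C4b was called lower at -0.36 (adjusted p = 0.01236) and C3ar1 at -0.32 (adjusted p = 0.006695), and Itgb2 at -0.51 (adjusted p = 0.0001792). For C1qa, C1qb, C1qc, C3, C5ar1 and Itgam the direction and the call were the same under these 3 scalings.

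**Figure D4:**
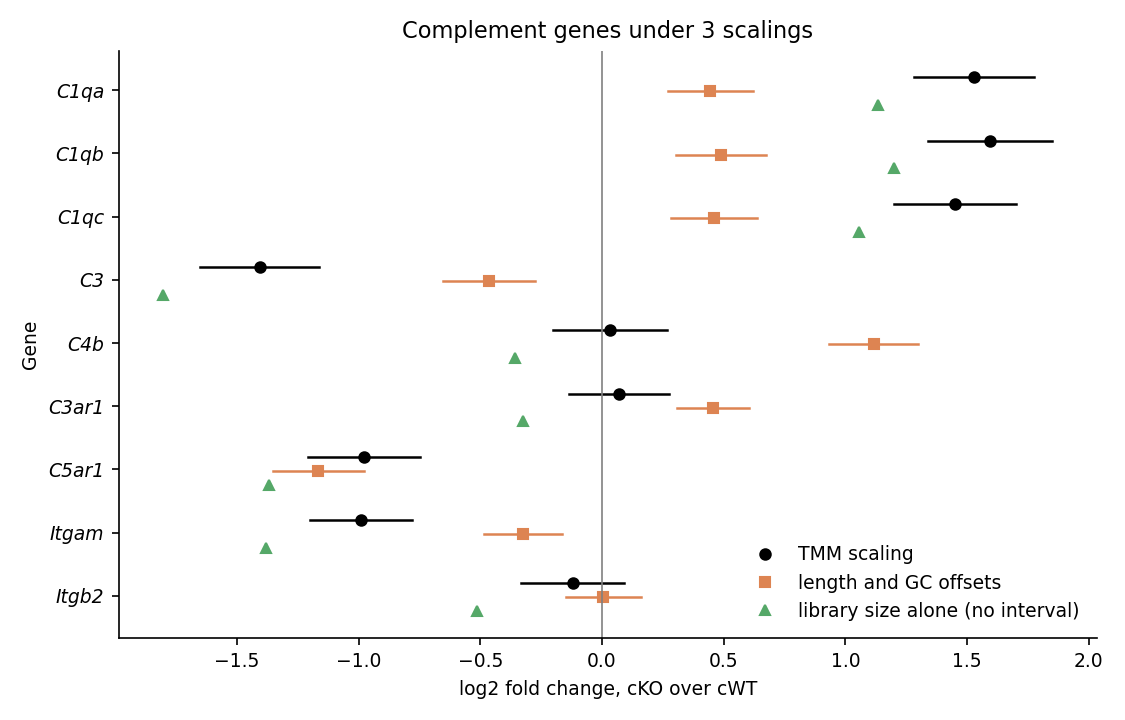
Log2 fold change of cKO over cWT for the 9 complement genes with TMM scaling (circles), with offsets for length and GC content (squares), both with 95% intervals, and with library size alone (triangles). The C1q genes are above 0 and C3, C5ar1 and Itgam below 0 in each, whereas C4b and C3ar1 change side.

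The rest of the complement system was described through 56 further genes in 5 lists by role, of which 48 had a row and 30 were tested. In all 10 rose and 8 fell, and the median fold change stood at -0.05 (log2). At 18 of 30 the share called was below the background of 72.1%. Genes of the C1 and C4 step that act with C1q did not pass the test. The proteases C1ra, C1s1 and C1rl stood at 0.17, -0.22 and -0.05, and C2, which joins C4b in the C3 convertase, at 0.01 (adjusted p = 0.5261, 0.4585, 0.7359 and 0.9733). In the lectin pathway the ficolins, pattern-binding proteins that can start complement, moved in opposite directions. Fcna rose from 17.4 ± 3.45 to 119.9 ± 13.2 CPM (log2 fold change 2.79, adjusted p = 8.973e-12), and Fcnb fell from 22.2 ± 1.27 to 14.2 ± 1.18 CPM (-0.64, adjusted p = 0.0002017). With the offsets Fcna stood at 1.88 and Fcnb at -1.81. Masp1, a protease of that pathway, stood at -0.68 (adjusted p = 0.2457), and the collectin Colec12 at -0.05 (adjusted p = 0.8053) and, under the offsets, at 1.15 (adjusted p = 2.734e-07).

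In the alternative pathway, which amplifies C3 cleavage, both tested genes rose, as did 35.6% of all genes. Cfd and Hc (C5), the other genes of that list, did not pass the filter. Cfb, the protease of its convertase, went from counts of 50, 56 and 52 in cWT to 99, 145 and 103 in the smaller cKO libraries. It rose from 2.72 ± 0.129 to 10.1 ± 2.54 CPM (1.89 on the log2 scale, adjusted p = 6.523e-07). It stood at 1.91 with the offsets. Cfp, which encodes properdin and stabilises that convertase, rose from 36.0 ± 5.79 to 63.7 ± 7.84 CPM (0.82, adjusted p = 9.791e-06) and was not called with the offsets (0.20, adjusted p = 0.2542). The terminal components, which form the membrane pore, were near the floor. None of the 4 with a row passed the filter, and C7 had 0 counts in each library, which allows up to 3 counts. Cfd and Cd55b were at 0 in each library as well. C8g had counts of 7, 11 and 34 in cKO and 6 to 8 in cWT.

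Of 13 tested regulators, most of which protect host cells from complement, 6 rose, 2 fell and 5 did not pass the test. Of all genes 35.6% rose and 36.5% fell, and the 8 of 13 called lie below the background of 72.1%. With the offsets 4 regulators were called higher and 2 lower, against 29.1% and 27.6% of all genes. Cd59a, which blocks the pore, rose by 1.37, Clu by 1.16, Cr1l (Crry, which inactivates C3b on rodent cells) by 1.08 and Cd55, which dismantles convertases, by 0.92 (adjusted p = 4.845e-07, 1.897e-07, 1.541e-08 and 0.001143). Cpn1 rose by 1.22 (adjusted p = 0.01602) and Vtn by 0.43 (adjusted p = 0.006285). Csmd3 fell by 1.04 (adjusted p = 3.142e-07). With the offsets Cd59a, Clu and Cd55 were still higher (0.54, 0.67 and 0.50), whereas Cr1l, Cpn1 and Vtn were not called (adjusted p = 0.2254, 0.139 and 0.2004) and Csmd3 turned to 0.54 (adjusted p = 0.003167). Serping1, the inhibitor of C1, stood at -0.03 (adjusted p = 0.8893) and was lower with the offsets at -0.71 (adjusted p = 0.003982). Susd4, Sez6, Sez6l and Sez6l2 stood between -1.26 and 0.04 and did not pass the test. Cells of the choroid plexus express Clu, and astrocytes do too, and the part of these cells in its rise was not tested.

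Among 7 tested receptors and binding partners 5 fell, 1 rose and 1 did not pass, against 36.5% lower and 35.6% higher over all genes. Lrp1, a large endocytic receptor that works with calreticulin in uptake of C1q-coated cells, had the lowest fold change of the 30 tested genes, from 1714 ± 112 to 196 ± 0.285 CPM (log2 fold change -3.13, SE 0.11, adjusted p = 4.93e-13). Cd93, once described as a C1q receptor, fell from 76.5 ± 8.83 to 17.5 ± 1.82 CPM (-2.13, adjusted p = 4.44e-11). Endothelial cells carry Cd93, and their 6 markers summed to 988 to 1183 CPM in cWT and 1400 to 1680 CPM in cKO. Kdr and Flt1 were lower by 2.41 and 2.16, and Ly6c1 was higher by 1.95. Of the 6 markers 2 were called higher and 4 lower, against 35.6% and 36.5% of all genes. With the offsets 1 was called higher and 3 lower, against 29.1% and 27.6%. The part of endothelial cells in Cd93 was not tested. Transcripts of Lrp1 and Cd93 are long (14888 and 6677 bases), and with the offsets they stood at -1.01 and -1.0. C1qbp, a mitochondrial protein that can bind C1q, rose by 0.99 (adjusted p = 1.984e-07), and the offsets turned it to -0.23 (adjusted p = 0.04122). Calr stood at -0.21 (adjusted p = 0.08259). With the offsets all 7 were called lower, against 27.6% of all genes.

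**Figure D5:**
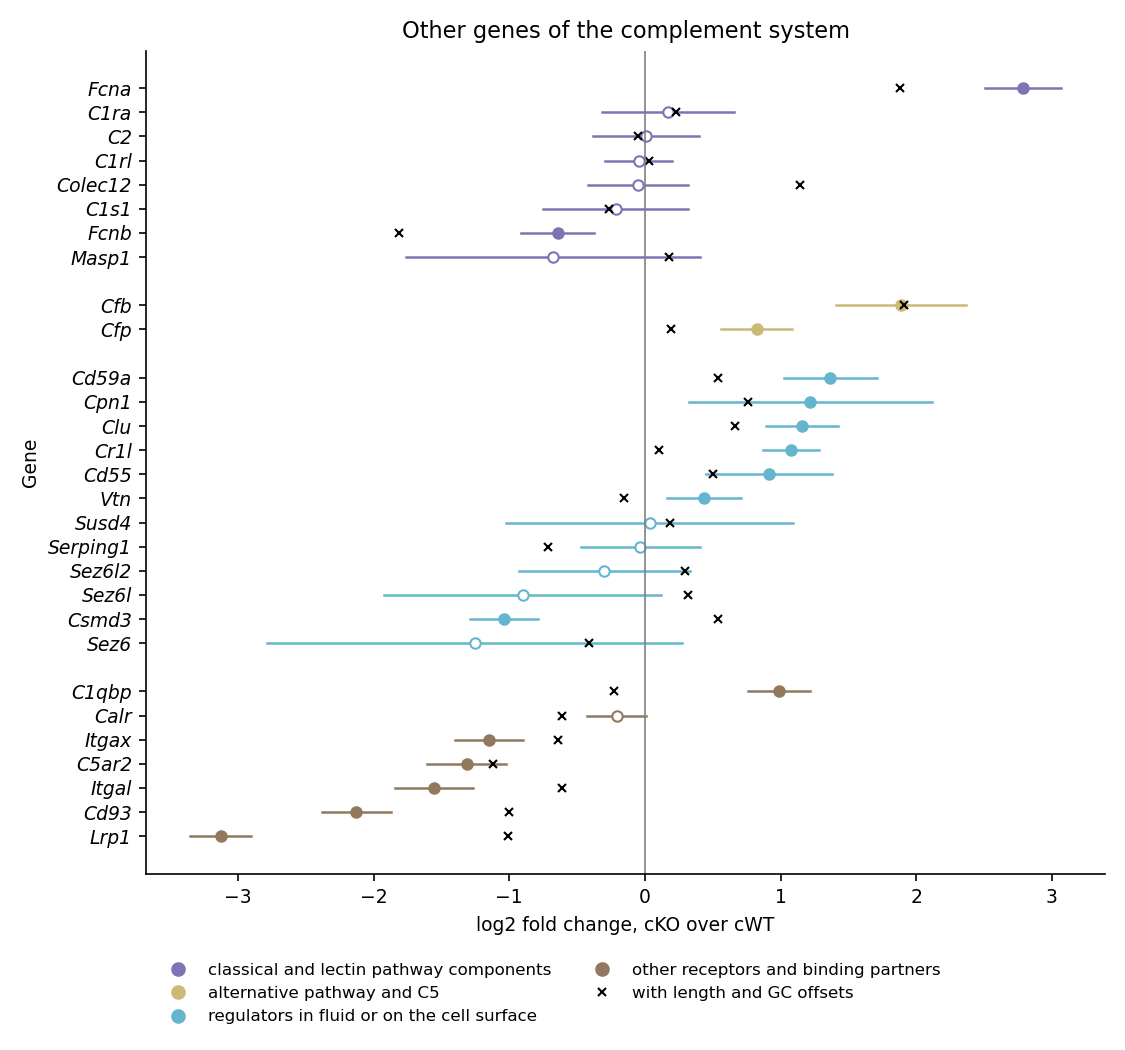
Log2 fold change of cKO over cWT for tested genes of the other complement lists, coloured by role, with 95% intervals. Filled circles passed the test and open ones did not, and crosses give the value with offsets for length and GC content, with Fcna highest at 2.79 and Lrp1 lowest at -3.13.

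The genes with the pattern most like that of the C1q chains were found by Pearson correlation of log2 CPM over the 6 libraries. Among the 5491 genes whose log2 CPM averaged 5 or more, the nearest to the mean of the 3 chains were Stra13, Cd9, Scand1, H2-M3 and Ppil2 (r from 0.9995 to 0.9997). Cd9, a tetraspanin, went from 538 to 1082 CPM, and H2-M3, a class I-like molecule, from 29.9 to 83.0 CPM. The nearest to the mean of Itgam and Itgb2 were Map1s, Mast3, Arhgef10l, Lrp5 and Npnt (r from 0.9989 to 0.9997), of which Lrp5, a Wnt co-receptor, went from 189.8 to 61.0 CPM. The libraries form 2 groups by genotype, and the step between them enters each of these correlations.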

How the data were processed

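RNA sequencing measured gene expression in 3 cWT and 3 cKO libraries, grouped by sample title. The authors deposited estimated counts per gene symbol, not scaled between libraries; 5.5% to 5.85% of values in a column were not whole, and counts were rounded before testing. The submitters' processing notes list STAR 2.7.9a, RSEM and DESeq2 and the builds GRCm38 and mm10, without their roles. The annotation was not given in the sources used here, nor was the use of strand. A second table holds the authors' own comparison. Per the file headers it gives a base mean signal, a log2 fold change with its error, a Wald statistic (a score), p-values and adjusted p-values. Fold changes of the complement genes in the authors' deposited table differed from those here by at most 0.0063 (log2).

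In R 4.3.3, edgeR 4.0.16 gave the two-sided quasi-likelihood test, with TMM scaling, robust dispersion and genotype as the only term. The filter filterByExpr (minimum count 10) left 13490 genes, and 3969 were not tested. Adjustment followed Benjamini and Hochberg over all tested genes, and calls had an adjusted p under 0.05. Standard errors and 95% intervals derive from the test statistic. Lengths and GC content come from GENCODE M21 (principal transcript), with a length for 96.2% of tested genes. The 3′ UTRs come from GENCODE M21 as well, and the longest annotated for each gene was used. For the offsets, each library's deviation from the gene mean was fitted by natural splines of log length and GC content (5 degrees of freedom each), which left a Spearman correlation of -0.0559 with length. Replicates differed by more than counting noise (chi-square per degree of freedom 3.76 to 18.2). Total counts of 12068703 to 17482042 set the precision, and floors of 3 counts cover counting error only. The tests were checked on simulated data. The alternatives were DESeq2 1.42.0, voom of limma 3.58.1, other scalings and filters, the offsets, a replicate block, leaving out each library and, for the ratios, the longest transcripts.

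The genes, lists and alternatives were chosen with earlier results of these data known. Named are all 9 genes, the tested genes of the role lists (1 of them, counted in the totals, is not reported here), the most abundant or most changed markers, and the 5 nearest patterns. Marker genes other than the most abundant were chosen after their values were seen.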

Additional observations from a re-analysis of the deposited data

How the results depend on the processing

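C1qa, C1qb, C1qc, C3, C5ar1 and Itgam kept their direction and call under all 15 alternatives run. With library size alone the members called lower went from 3 to 6 and other pathway genes called lower from 8 to 13, and C4b (-0.36), C3ar1 (-0.32) and Itgb2 (-0.51) became calls. With the length and GC offsets the members called higher went from 3 to 5, with C4b at 1.12 and C3ar1 at 0.45. By construction these settings change what counts as no change, and the offsets hold only as far as the annotated lengths do. Leaving out each library gave 3 members higher and 3 lower every time, 10 to 12 other pathway genes higher and 8 to 10 lower. For the C1qa share the difference (cKO minus cWT) was -0.967 to 0.309 percentage points without 1 library, for C1qb 1.25 to 2.38 and for C1qc -1.71 to -1.40. For Itgam over Itgb2 it was -1.118 to -1.002, and -1.068 with the longest transcripts.

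Replicate numbers are shared between genotypes, and deviations of same-numbered libraries correlated at 0.0985, 0.0335 and 0.0882, so the numbers were not taken as pairs, although each of the 6 libraries correlated best with its own number. With the replicate block 3 members were called higher and 3 lower, Itgam stood at -0.99 and C1qb at 1.60, and 9911 genes were called in place of 9729.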
